A study of Homo sapiens with 6 samples.

Results

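SMAD2/3 binding in BT549 cells soon after and long after TGFβ3 was compared between the 2 peak lists of this line. They hold 17378 of the 20600 peaks in the series. The members are every peak listed after 1.5 h (9225 peaks) and every peak listed after 16 h (8153 peaks). BT549 is an established human triple-negative breast cancer cell line of mesenchymal character. Both groups are BT549 cells kept in RPMI-1640 medium with serum and insulin and given recombinant human TGFβ3, and they differ in the time of exposure. The dose is not stated in the labels. Chromatin was precipitated with an antibody that recognises SMAD2 and SMAD3. Each time is 1 library, so a difference between the times has no replicate check and none was tested. The 6 samples of the series include no SMAD2/3 profile of BT549 cells without TGFβ3. The lists therefore show where binding was called at each time and not which of it followed from TGFβ3. Input DNA of BT549 is in the series and was not used here. The series also has peak lists of Hs578T, another triple-negative line, which serve as a second readout.

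TGFβ ligands bring together a pair of receptor kinases, which phosphorylate SMAD2 and SMAD3. The phosphorylated proteins join SMAD4, enter the nucleus and touch DNA through short motifs, with partner factors such as AP-1, RUNX and TEAD proteins holding them at chosen enhancers. The pathway induces its own inhibitors early, and in carcinoma cells a longer exposure is known for changes in matrix, adhesion and motility genes. A comparison of an early with a late time asks which sites stay occupied.

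Each peak carries the score that the authors' peak caller gave it. The lowest listed scores were 50.02 at 1.5 h and 50.01 at 16 h, and the medians were 88.5 and 76.6. Scores grow with read depth, which is unknown here, so a lower score at 16 h is not read as less binding, and a site missing from a list may lie under its threshold. Sites are given by position on hg19. Gene names were not assigned, because no annotation of that build was used here, and gene loci are therefore represented by windows and by clusters of neighbouring peaks.

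The strongest SMAD2/3 sites of BT549 were listed at both times, and the share with a partner at the other time was lower farther down the ranking. Of the 1.5 h peaks, 58.6% had no 16 h peak sharing 1 bp or more, and of the 16 h peaks 53.5% had no 1.5 h peak. Between ranks 101 and 500, however, 98.8% (97.1 to 99.5, 95% Wilson interval for counting error only) of the 1.5 h peaks had a partner, and 98.5% (96.8 to 99.3) of the 16 h peaks. Between ranks 1001 and 2000 this was true of 62.2% (59.3 to 65.1) and 61.6% (58.5 to 64.6). Between ranks 3001 and 4000 the share stood at 45.9% (42.8 to 48.9) and 46.8% (43.7 to 49.9). The best-ranked peak without a partner was number 314 at 1.5 h and number 449 at 16 h.

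**Figure D1:**
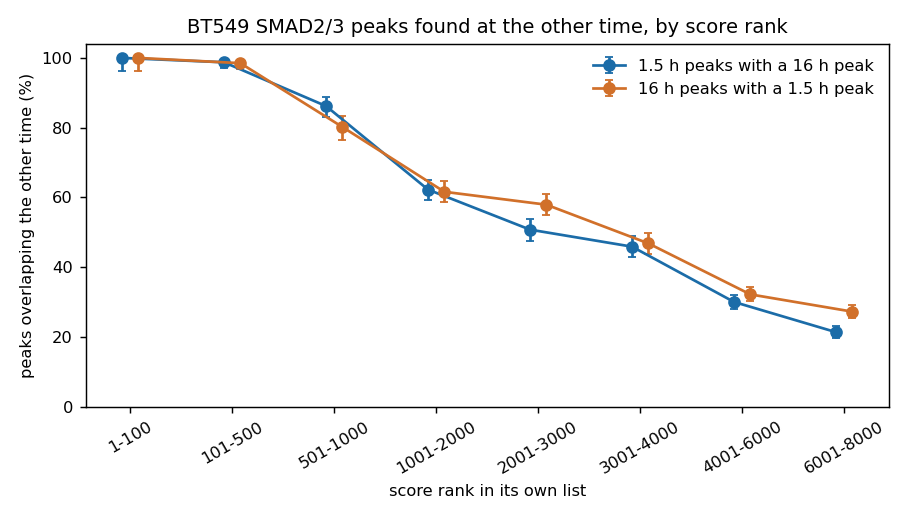
Share of BT549 SMAD2/3 peaks that overlap a peak of the other time (y axis, percent, from 0) by rank of the score in its own list (x axis, rank bins), for 1.5 h peaks (blue) and 16 h peaks (orange), with 95% Wilson intervals. Both lines start at 100% and reach 62.2% and 61.6% in the bin from rank 1001.

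Between ranks 501 and 4000, peaks of 150 bp or more (wide peaks) had a partner more often than all peaks of the same ranks. Among peaks of 150 bp or more between ranks 1001 and 2000, 79.1% (76.2 to 81.7) at 1.5 h and 87.0% (84.3 to 89.4) at 16 h had a partner. Between ranks 501 and 1000 the wide peaks had a partner in 92.9% (90.2 to 94.9) and 96.8% (94.6 to 98.1) of cases. Wide peaks of these ranks were thus mostly found at both times. Between ranks 3001 and 4000 wide peaks had a partner in 50.1% (46.7 to 53.4) and 55.8% (52.3 to 59.2) of cases. All peaks of these ranks stood at 45.9% and 46.8%. Between ranks 6001 and 8000 the 1.5 h shares were 21.0% (19.2 to 22.9) of wide and 21.3% (19.6 to 23.2) of all peaks. At 16 h they were 27.7% (25.7 to 29.8) and 27.2% (25.3 to 29.2). Wide peaks made up 1862 of 2002 and 1847 of 1999 peaks there, so the shares of wide and all peaks had to be close. Narrow peaks were not counted apart by rank. Unpartnered peaks had a median width of 218 bp at 1.5 h and 207 bp at 16 h, where peaks with a partner had 339 bp and 335 bp.

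Joining peaks that touched gave 13396 binding regions. Of these, 3628 (27.1%) were listed at both times, 5408 at 1.5 h only and 4360 at 16 h only. A single peak of each time made up 3319 of the shared regions, while 148 held more peaks at 1.5 h and 128 more at 16 h. The scores of unpartnered peaks were lower, with medians of 76.7 at 1.5 h and 66.4 at 16 h against 130.1 and 101.3 for peaks with a partner. Of the wide peaks with a score of 100 or more, 838 of 3253 at 1.5 h (25.8%) and 225 of 2109 at 16 h (10.7%) had no partner, below the 58.6% and 53.5% of all peaks. A score of 100 keeps 3866 of 9225 early and 2726 of 8153 late peaks. The limit thus reaches less far down the late list, and the 2 times are not on a like footing here.

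Within the shared regions, the order of the scores was kept in part. Spearman's rho between the times was 0.60 over 3628 regions, which is a description, since all regions come from the same pair of libraries. The score at 16 h was 0.796 times the score at 1.5 h at the median, and the middle 80% of regions had ratios from 0.417 to 1.49. It was higher at 16 h in 1128 regions, or 31.1%, and lower in 2499. On ranks the times were closer, with 1607 regions standing better at 16 h and 2021 standing worse, counted as a percent of the list. That standing moved by over 25 points in 1147 regions, or 31.6%.

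The upper end of the ranking was shared in part. Of the regions in the first 100 at 1.5 h, 64 were in the first 100 at 16 h, and their median rank at 16 h was 67.5. Of the regions in the first 1000, 594 were in the first 1000 at the other time. All regions in the first 100 of either list were shared.

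**Figure D2:**
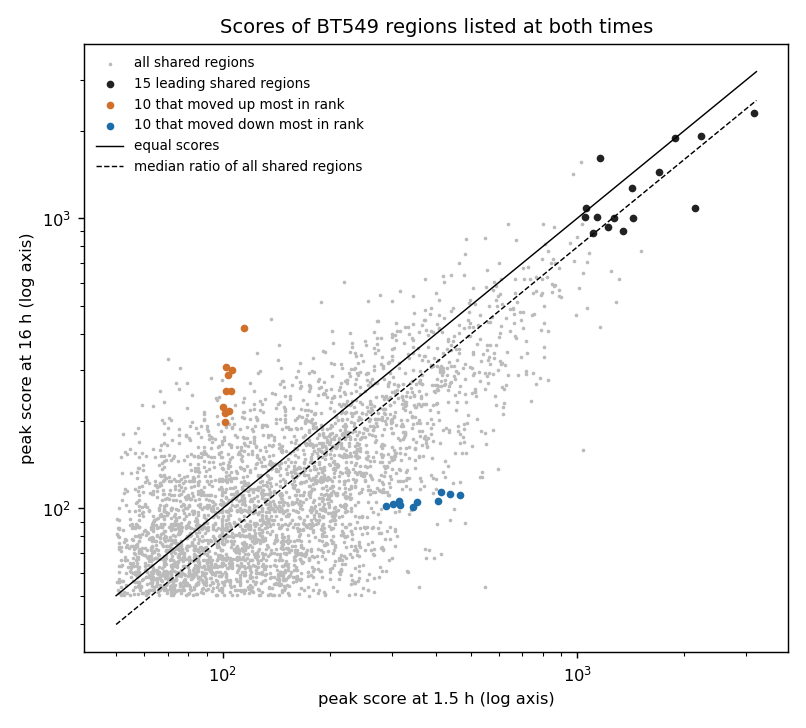
Peak score at 1.5 h (x axis, log scale) against the score at 16 h (y axis, log scale) for the 3628 BT549 regions listed at both times (grey), the 15 leading shared regions (black) and the 10 regions that moved most up (orange) or down (blue) in rank among those scoring 100 or more at both times, with lines of equal scores (solid) and of the median ratio of 0.796 (dashed). Most points lie under the solid line, and the orange and blue points start at a score of 100 because of that limit.

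Of the 15 leading shared regions, 13 scored lower at 16 h and 2 scored higher. Both lists were headed by chr1:121484054-121485466, with 3144 at 1.5 h and 2310.0 at 16 h, and by chr17:48255123-48256219, with 2234 and 1913. The first of these lies within 1 Mb of the longest peak-free stretch of its chromosome, as does chr7:61968620-61969728, with 1887 and 1885. The other 13 regions do not. Among them, chr5:64331168-64332155 ranked 5 and 6, and chr4:166501285-166502114 ranked 8 in both lists with 1429 and 1274. The 15 were taken by the worse of their ranks at the 2 times, so a high place in both lists was fixed by that choice. All 15 were within the first 23 early and the first 21 late ranks.

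Within the 15, scores differed between the times at some sites, and ranks by a few places in lists this long. At chr8:23398262-23399726 the score was 2152 at 1.5 h (rank 3) and 1085 at 16 h (rank 9), the lowest ratio of the 15, 0.504. The reverse was seen at chr17:76588278-76589062, with 1157 (rank 16) and 1609 (rank 4), a ratio of 1.39. At chr21:37802063-37802982 the scores were nearly equal, 1057 and 1082, while the rank was 22 at 1.5 h and 10 at 16 h. The regions chr14:75086161-75087023, with 1221 and 929, and chr10:33269265-33270147, with 1108 and 887, had ratios of 0.761 and 0.801, near the median of all shared regions. A Hs578T peak overlapped 7 of the 15, among them both regions within 1 Mb of a longest peak-free stretch. Over all BT549 peaks the share was 2.72% at 1.5 h and 2.81% at 16 h, and over all shared regions it was 4.41% (3.79 to 5.13). Among wide peaks with a partner and a score of 250 or more it was 6.07% (4.57 to 8.03) at 1.5 h and 8.20% (6.01 to 11.1) at 16 h. The width of these regions, 785 to 1642 bp, gives more room for an overlap.

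Lower in the ranking, some shared sites changed place by a wide margin. Among the 1584 shared regions that scored 100 or more at both times, the 16 h score was at least 2 times the 1.5 h score in 25 and at most 1/2 of it in 198. The region chr10:64323942-64324690 scored 114 at 1.5 h (rank 3264) and 417 at 16 h (rank 147). At chr14:85938058-85938474 the scores were 102.0 (rank 3757) and 306 (rank 279), and at chr18:42273019-42273528 they were 103 and 288. The 10 of the 1584 that moved up most scored 100.4 to 114 at 1.5 h, just over the limit of 100 that they had to pass, and 198 to 417 at 16 h. They were far down the early list and among the first 709 of the late one.

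In the opposite direction, chr1:115711244-115711834 scored 468 at 1.5 h (rank 208) and 112 at 16 h (rank 2306). The scores at chr2:234395412-234396130 were 437 and 112, and those at chr18:46524420-46524892 were 411 (rank 278) and 114 (rank 2224). The 10 of the 1584 that moved down most scored 288 to 468 at 1.5 h and 101 to 114 at 16 h, again just over the limit. These regions were chosen by their change and under the limit of 100, which also bounds how far a region can move. Their standing moved up by at most 37.3 points and down by at most 28.1 points, where over all 3628 shared regions the most was 87.1 points up and 91.7 points down. A Hs578T peak overlapped 1 of the 10 that moved up and 0 of the 10 that moved down.

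Sites listed at a single time had moderate scores. The 15 leading sites of 1.5 h alone scored 268 to 392. They included chr1:51443068-51443707 with 392, chr3:67697882-67698341 with 384 and chr6:74290123-74290757 with 332. The second of these has a neighbour on chromosome 3, at 67704553 to 67705113, that was among the 10 named above as moving down, with 353 and 105.1. Each was picked by a rule that needs a higher standing in the early list, so their likeness in this was fixed by the choice. Wide sites farther down were chr3:122252638-122253197 with 284 and chr21:44581855-44582622 with 269.

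The 15 leading sites of 16 h alone scored 209 to 251 and were mostly narrow. Under 150 bp were 12 of these 15, against 5 of the 15 at 1.5 h. The 3 wider ones were chr5:13566949-13567494 with 251, chr11:98604140-98604500 with 238 and chr14:61614396-61615203 with 236. Of these, the site on chromosome 11 also overlapped a Hs578T peak. The last 5 of the 15 tied in score with other peaks of 88 or 89 bp, and position alone decided which were counted.

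Across loci, taken as 100 kb windows, gains and losses of listed peaks were nearly balanced. Of the 8013 windows with a BT549 peak, 3120 (38.9%) held peaks at both times, 2450 (30.6%) at 1.5 h only and 2443 (30.5%) at 16 h only. Fewer peaks at 16 h were found in 42.8% of the windows and more in 37.0%. With peaks of score 100 or more alone, 1446 windows held them at 1.5 h only, 807 at 16 h only and 1323 at both times. That limit keeps 3866 early and 2726 late peaks, so these window counts follow the list sizes as well. Many high-scoring peaks of a single time were also narrow. Regions with a score of 100 or more had a median width of 91 bp at 16 h only (794 regions). It was 242 bp at 1.5 h only (1393 regions).

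At the scale of 1 Mb, 45.3% of the 2551 windows with a peak had fewer at 16 h and 36.4% had more. The widest drop was between 43 and 44 Mb of chromosome 20, with 18 peaks at 1.5 h and 4 at 16 h. Every 16 h region there was also listed at 1.5 h, and 12 regions were listed at 1.5 h only. Between 49 and 50 Mb of the same chromosome the numbers were 21 and 10, with 10 shared regions, 11 at 1.5 h only and 0 at 16 h only. In both windows the late peaks were thus a subset of the early ones.

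In the other named windows with a drop, at most 1 region was listed at 16 h only. Chromosome 10 had 22 and 10 peaks between 3 and 4 Mb, with 12 regions at 1.5 h only and 1 at 16 h only. Chromosome 2 had 18 and 8 between 9 and 10 Mb, with 0 regions at 16 h only. Chromosome 17 had 14 and 4 between 17 and 18 Mb, with 3 shared regions and 1 at 16 h only. By whole chromosome, the ratio of late to early peaks was lowest on chromosome 20, with 0.757, and chromosome 22, with 0.771, and among the autosomes highest on chromosome 4, with 1.04.

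Gains were smaller. The widest was between 77 and 78 Mb of chromosome 8, with 3 peaks at 1.5 h and 11 at 16 h, where 9 regions were listed at 16 h only. Chromosome 16 had 6 and 13 between 46 and 47 Mb, and 1 and 7 between 66 and 67 Mb. In the first of these windows, 5 early and 10 late peaks lay in chr16:46387352-46407794 alone. That stretch is within 1 Mb of the longest peak-free stretch of the chromosome. Chromosome 8 had none at 1.5 h and 6 at 16 h between 35 and 36 Mb, and 1 and 6 between 114 and 115 Mb. These 10 windows were named for their difference.

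Neighbouring regions were then joined into clusters where they lay at most 10 kb apart, a distance chosen after the values had been seen. This gave 10334 clusters, of which 8308 held 1 region, 1389 held 2, 418 held 3 and 219 held 4 or more. Of the regions at 16 h only, 75.2% (73.9 to 76.5) were isolated, beside 62.0% of all regions. For those at 1.5 h only the share was 62.4% (61.1 to 63.7), near that of all regions. For the shared ones it was 45.5% (43.9 to 47.2). Among isolated regions, 40.6% were listed at 1.5 h only and 39.5% at 16 h only. In clusters of 4 or more the shares were 39.4% and 16.5%. Regions shared by both times went from 19.9% (19.0 to 20.8) of isolated regions to 44.1% (41.2 to 47.1) of those in clusters of 4 or more. Clustered regions were also wider, with a median of 310.0 bp against 219 bp, and scored higher, with a median of 95.4 against 78.7, and the part of width and score in these shares was not tested.

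**Figure D3:**
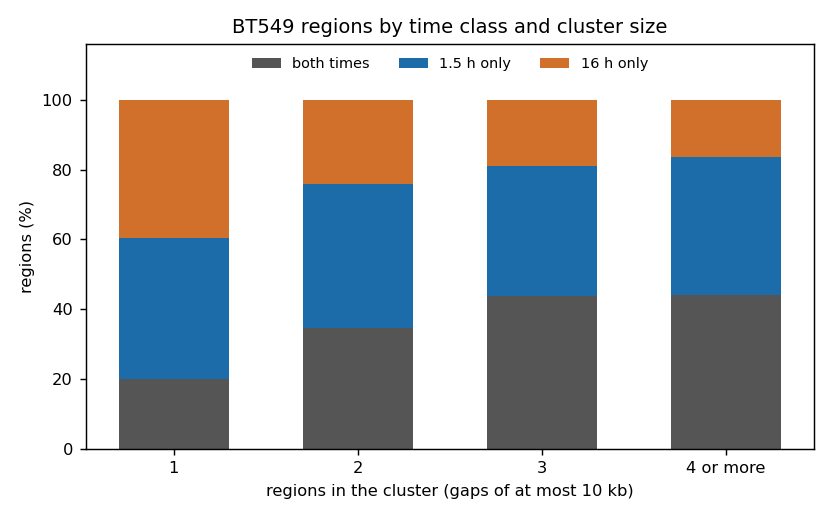
Share of BT549 regions (y axis, percent, from 0) listed at both times (grey), at 1.5 h only (blue) and at 16 h only (orange) by the number of regions in their cluster (x axis). The orange part goes from 39.5% of isolated regions to 16.5% in clusters of 4 or more, while the blue part stays between 37.2% and 41.4%.

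Of all 10334 clusters, 3271 held peaks at both times, 3673 at 1.5 h only and 3390 at 16 h only, and a cluster of 1 region can be shared only if that region is. Of the 1389 clusters of 2 regions, 263 were listed at 1.5 h only and 108 at 16 h only. Of the 219 clusters of 4 or more regions, 210 held peaks at both times, 8 at 1.5 h only and 1 at 16 h only. A cluster counts under both times if any of its regions has an early peak and any has a late one. The share at both times thus tends to rise with the number of regions by the counting alone. Fewer peaks at 16 h were listed in 63.9% of the 219 clusters and more in 19.6%. The values were 52.9% and 24.6% in clusters of 3, and 43.0% and 36.6% over all clusters, most of which hold 1 region. In the 505 clusters with 2 or more shared regions, the region with the highest score was the same at both times in 356, or 70.5%. In 238 of the 505, some shared regions scored higher at 16 h and others did not. In 41 all scored higher, and in 226 none did.

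The cluster with the largest loss of score among the 8 with the most regions was chr8:145008226-145027106, with 12 regions and 9 peaks at each time. Its 4 shared regions scored 716 and 291, 468 and 124, 298 and 126, and 206 and 153, in order along the chromosome. All 4 were lower at 16 h, with a median ratio of 0.415, and the first of them led at both times. The 8 remaining regions had scores of at most 83.3, with 5 listed at 1.5 h only and 3 at 16 h only. Equal numbers of peaks thus went with unequal scores.

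The cluster chr16:46387352-46407794 showed the opposite. It had 5 peaks at 1.5 h and 10 at 16 h, and 6 of its 11 regions were listed at 16 h only. Its leading region scored 80.1 at 1.5 h (rank 5381) and 175 at 16 h (rank 916), and another scored 52.9 (rank 8983) and 156 (rank 1170). All 4 shared regions scored higher at 16 h. The cluster lies within 1 Mb of the longest peak-free stretch of chromosome 16. The cluster chr10:42379847-42400684, also beside such a stretch, had 15 regions, 13 of them shared, with a median ratio of 0.917. Its leading early region scored 366 and 324, and the leading late one 359 and 338.

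In other clusters the leading site changed. At chr20:30181027-30198874, of 9 regions, the highest early score was 277 at a region that scored 221 at 16 h. The highest late score was 443 (rank 126), at a neighbour that scored 274 at 1.5 h (rank 645). The other 4 shared regions of that cluster all scored lower at 16 h, and 3 weak regions were listed at 1.5 h only. It too lies beside a long peak-free stretch. At chr1:8933641-8960407 the leading early region scored 200.1 and 118, and the leading late one 167 (rank 1753) and 207 (rank 647). In that cluster 3 of 4 shared regions scored higher at 16 h.

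In the remaining 3 of these 8 clusters most shared regions scored lower at 16 h. At chr2:161061780-161086340 the 3 shared regions scored 534 and 321, 169 and 112, and 271 and 243. At chr1:875085-880373 the leading region scored 457 (rank 223) and 232 (rank 518), and all 8 regions of the cluster overlapped a Hs578T peak. The cluster chr11:118779937-118800510 had weak peaks, with scores of at most 127 at 1.5 h and 99.8 at 16 h. Its shared regions did not keep their order, with 127 and 50.5 at one and 87.4 and 99.8 at another.

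**Figure D4:**
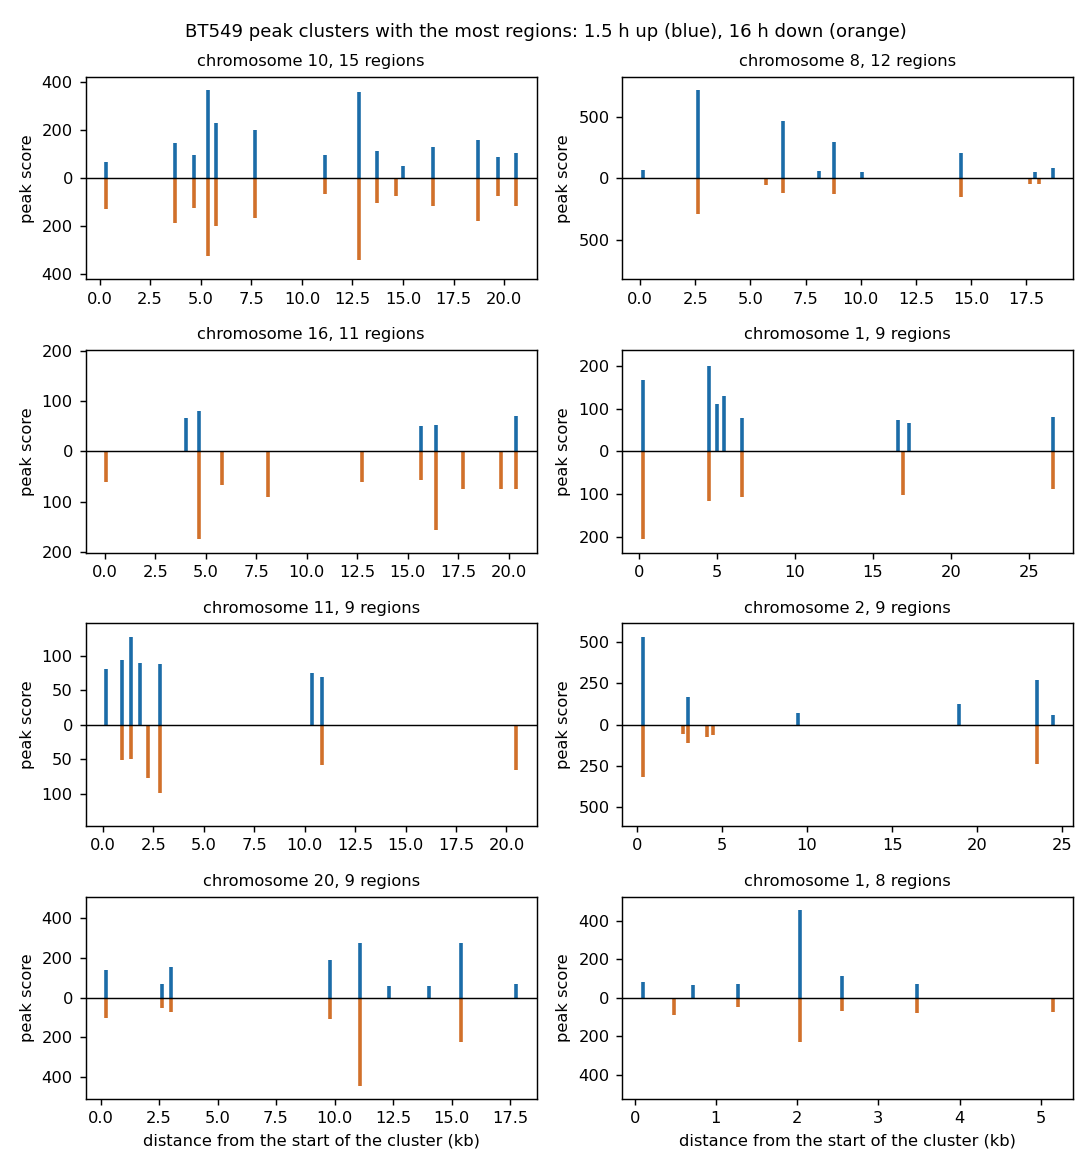
Peak scores (y axis) in the 8 BT549 clusters with the most regions by distance from the start of the cluster (x axis, kb), with the 1.5 h score of each region drawn upwards (blue) and the 16 h score downwards (orange). In the chromosome 8 cluster the blue bars are the longer at each shared site, in the chromosome 16 cluster the orange ones are, and in the chromosome 10 cluster both are of like length.

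Among clusters listed at a single time, the one at chr2:9695983-9705915 had 4 regions at 1.5 h, with scores of 145, 224 (rank 983), 65.8 and 83.6, and no 16 h peak. It lies in the window of chromosome 2 that had 18 and 8 peaks. The cluster chr5:88080637-88081970 had 4 early regions within 1.33 kb, the highest with 193. At 16 h only, chr12:54359659-54368554 held 4 regions with scores from 60.9 to 70.6, of which 2 overlapped a Hs578T peak. The cluster chr12:51008108-51014843 held 3, the highest with 140.1 (rank 1383). Another early-only cluster, chr6:31693036-31708832, had 4 regions, the highest with 142 (rank 2374) at a peak of 84 bp. These clusters were taken for their number of regions.

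Early-only regions lay beside persistent sites more often than late-only regions at scores under 100, and not beyond the intervals above it. A given score reaches less far down the late list, so the times are not on a like footing here either. Among regions of 150 bp or more, 17.1% (16.0 to 18.2) of those at 1.5 h only had a shared region within 5 kb, and 10.2% (9.19 to 11.3) of those at 16 h only. Shared regions had another shared region this near in 25.2% (23.8 to 26.7). At scores from 50 to 100, 16.6% (15.4 to 17.8) of early-only and 9.62% (8.62 to 10.7) of late-only regions were this near. From 100 to 150 the intervals overlapped, with 19.2% (16.2 to 22.5) and 16.8% (12.2 to 22.6). At 150 or more the order turned, with 44 of 222 early-only regions, or 19.8% (15.1 to 25.6), and 7 of 28 late-only regions (an interval of 12.7% to 43.4%), and the intervals overlapped again.

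**Figure D5:**
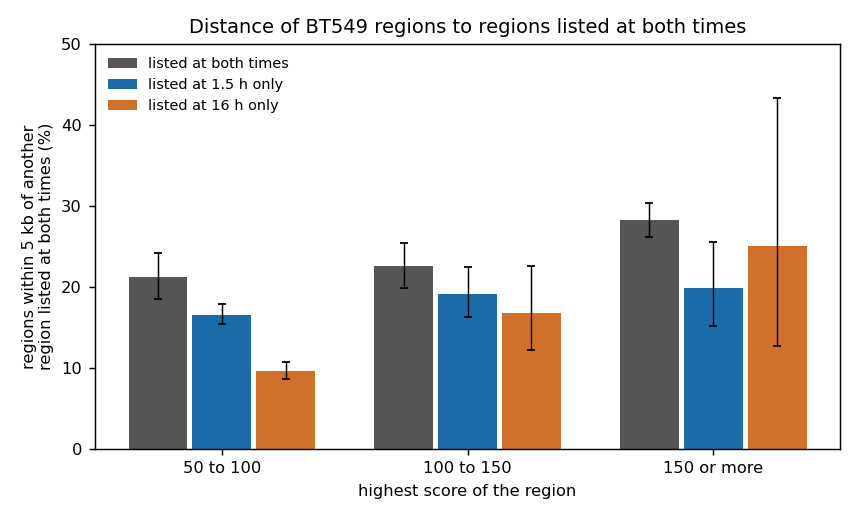
Share of BT549 regions of 150 bp or more that lie within 5 kb of another region listed at both times (y axis, percent, from 0) by the highest score of the region (x axis) for regions listed at both times (grey), at 1.5 h only (blue) and at 16 h only (orange), with 95% Wilson intervals. At scores of 50 to 100 the bars stand at 21.2%, 16.6% and 9.62%, and above 100 the blue and orange intervals overlap.

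Hs578T binding is a readout that the BT549 times did not use. Peaks with a partner at the other BT549 time overlapped a Hs578T peak in 4.30% (3.70 to 4.99) of cases at 1.5 h and 4.17% (3.57 to 4.85) at 16 h. Peaks without a partner did so in 1.61% (1.31 to 1.98) and 1.63% (1.29 to 2.05). Partnered peaks are wider and score higher, and at neither time did the order hold at every score. Among wide peaks with scores from 100 to 150, 4.79% (3.51 to 6.51) of partnered and 1.46% (0.771 to 2.75) of unpartnered 1.5 h peaks overlapped Hs578T. From 75 to 100 the 1.5 h shares were nearly equal, 1.36% (0.692 to 2.67) and 1.26% (0.776 to 2.03), and from 150 to 250 the unpartnered share was the higher, 3.86% (1.97 to 7.44) against 2.84% (1.93 to 4.16). At 16 h the values from 100 to 150 were 2.53% (1.64 to 3.88) and 4.57% (2.42 to 8.45), the latter resting on 9 of 197 peaks.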

How the data were processed

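SMAD2/3 ChIP-seq peak lists of BT549 at 1.5 h and 16 h after TGFβ3 were used, and both Hs578T lists as a second readout. The submitters' processing notes name hg19 with Bowtie 1.1.0, MACS 1.4.2 and Picard, without their settings. The deposited score of each peak is the authors' peak-caller value, called per library. Read totals were not used, so the depth behind a score is unknown.

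Peaks sharing 1 bp or more were counted as overlapping and merged into regions, and ranks were taken within each list. Shares carry 95% Wilson intervals. With 1 library per time no test was made. The regions named were the 15 leading shared ones, 15 of each single time, 10 that moved most in rank each way among shared regions scoring 100 or more at both times, and 5 windows of 1 Mb each way; ties were broken by position. Clusters, and those named (8 with the most regions and the leading ones of a single time), were chosen after their values were seen. Members, lists and alternatives were chosen with earlier results of these data known. The gene lists drawn up for the study were not used, and no sequence is shown, since both need hg19 positions of genes or the hg19 sequence. Overlap code was tested on simulated lists. Python 3.11.15, numpy 2.4.6, pandas 2.3.3, scipy 1.17.1 and matplotlib 3.10.9 were used.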

Additional observations from a re-analysis of the deposited data

Results flagged for a closer look

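The lists moved in opposite directions in the cell lines, and this difference was not tested. In BT549 the late list held 0.884 times as many peaks as the early one, where the Hs578T late list held 1.35 times as many. Counting scores of 100 or more only, the ratios were 0.705 and 2.12. Each line has 1 library per time, of unknown depth.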

How the results depend on the processing

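The share of 1.5 h peaks with a 16 h peak (41.4%) and of 16 h peaks with a 1.5 h peak (46.5%) depended on the limits. With 50% of both peaks overlapping they were 32.5% and 36.8%, within 500 bp 46.2% and 49.8%, with equal numbers of peaks 43.9% and 44.0%, and with peaks of 150 bp or more 44.2% and 51.6%. With scores of 100 or more the second was 59.2%. Spearman's rho (0.60 over 3628 merged regions) was 0.67 with 50% of both peaks and 0.49 within 500 bp. These 2 values pair each 1.5 h peak with its highest-scoring 16 h partner, over 3001 and 4265 pairs. The unit thus changed along with the limit. The 100 kb windows with peaks at both times, 1.5 h only and 16 h only (3120, 2450 and 2443) numbered 1323, 1446 and 807 at scores of 100 or more. Shares overlapping Hs578T, for 1.5 h peaks with and without a partner and 16 h peaks with and without one, were 2.40%, 0.848%, 2.35% and 0.899% at scores of 100 or more in all lists, 2.57%, 0.948%, 2.70% and 1.05% with 50% of both peaks, and 3.08%, 1.09%, 3.07% and 1.05% with peaks of 150 bp or more. The partnered share stayed above the other in each. In all, 26 of 39 recomputed values moved beyond the counting interval, or for windows beyond 1.5 times, and 13 did not. Fewer windows follow from fewer peaks; other causes were not tested. Gene-based loci and the nearest gene start were not run, since they need hg19 gene positions. No paired analysis was possible because each time has 1 library.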

Other observations

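Many narrow BT549 peaks had exactly the same width and score as another narrow peak of their list. Of the peaks under 150 bp, 436 of 1133 at 1.5 h (38.5%, 35.7 to 41.3) and 514 of 1280 at 16 h (40.2%, 37.5 to 42.9) were tied in this way. Among peaks of 150 bp or more the shares were 24.2% (23.3 to 25.1) and 24.7% (23.7 to 25.7). The largest tie at 1.5 h was of 72 peaks of 84 bp with a score of 154.6, and 0 of them overlapped a 16 h peak. At 16 h it was of 81 peaks of 86 bp with a score of 137.2, and 0 of them overlapped a 1.5 h peak. Among wider peaks the largest ties were of 8 and 12 peaks. Of all tied narrow peaks, 5.28% at 1.5 h and 4.28% at 16 h had a partner in the other list. Regions under 150 bp, tied or not, made up 934 of the 5408 listed at 1.5 h only and 1099 of the 4360 at 16 h only. Beyond this and the width limit given with the alternatives, the part of tied peaks in these counts was not tested. This pattern was noticed after the values were seen.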
